A study of Mus musculus with 23 samples.

Results

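Described here are 9 genes other than Ehhadh whose liver RNA level differed between Ehhadh knockout (KO) and wild-type (WT) mice, followed across 4 groups of animals. The 9 genes, of 24062 in the count data, are Anxa13, Pla1a, Cib3, Nfe2, Bglap3, Mtmr11, Mb21d2, Timmdc1 and Arvcf. They had been picked from these same libraries for a KO against WT difference under both treatments, so every genotype difference below is a description with no test. One of them, Nfe2, did not keep its difference under the second treatment, as its values show. Timmdc1 and Mb21d2 differed little under the first, saline, with a log2 fold change of 0.20 each and overlapping ranges. Liver polyA RNA was sequenced from 23 mice of strain B6/129, 1 library per animal. There were 7 WT mice given saline (29 to 45 weeks old), 5 KO mice given saline (31 to 44 weeks), 6 WT mice given L-AC (28 to 44 weeks) and 5 KO mice given L-AC (28 to 38 weeks). The labels give L-AC by that abbreviation only. Its dose, its duration and the part of Ehhadh removed in the KO are not given in the sources used here.

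Ehhadh encodes the peroxisomal L-bifunctional protein, which carries out the hydratase and dehydrogenase steps of peroxisomal fatty acid beta-oxidation. As background, L-aminocarnitine inhibits carnitine palmitoyltransferase of mitochondria, and a liver in which mitochondrial fatty acid oxidation is inhibited depends more on the peroxisomal route. The 9 genes belong to no common pathway. Anxa13 encodes an annexin, a calcium-dependent phospholipid-binding protein, Pla1a a secreted phospholipase that removes a fatty acid from phosphatidylserine, and Cib3 an EF-hand calcium-binding protein. Nfe2 encodes the large subunit of NF-E2, a transcription factor of red cell and platelet precursors that pairs with small Maf proteins, and Bglap3 a relative of the bone protein osteocalcin. Mtmr11 belongs to the catalytically inactive myotubularins, Mb21d2 to the Mab-21 nucleotidyltransferase fold family, Timmdc1 is an assembly factor of respiratory complex I, and Arvcf is a delta catenin that binds the tails of cadherins.

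Counted reads ranged from 24521896 to 48095959 per library. Ehhadh itself, counted over all its exons, was given in CPM, the counts scaled to a common library size. On saline it lay at 634.8 to 1635 CPM in WT livers and at 90.92 to 252.9 CPM in KO livers, and on L-AC at 10260 to 14650 CPM in WT and 1421 to 2144 CPM in KO. The KO libraries lay below the WT libraries under both treatments, which matched their labels. All 6 hepatocyte markers looked at were present, and their summed level was 57200 to 71600 CPM over the saline libraries and 30900 to 55000 CPM over the L-AC libraries. Because whole liver was sequenced, fewer cells of a type and less RNA per cell cannot be told apart. Replicates are separate animals.

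By position on mm10, 4 of the 9 genes lie on chromosome 16, which also carries Ehhadh (chr16:21761285-21787834, minus strand) and held 442 of the 14196 genes tested, or 3.11%. Arvcf (chr16:18348182-18407074, plus strand) is 3.4 Mb from Ehhadh. Mb21d2 (chr16:28826176-28929698, minus strand) is 7 Mb away. Pla1a (chr16:38396117-38433145, minus strand) and Timmdc1 (chr16:38497843-38522663, minus strand) lie 16.6 and 16.7 Mb away, with 64.7 kb between them. The others are on other chromosomes. Anxa13 (chr15:58341464-58389274, minus strand) and Nfe2 (chr15:103248218-103255416, minus strand) share chromosome 15. Bglap3 (chr3:88368617-88369720, minus strand) and Mtmr11 (chr3:96161970-96171718, plus strand) share chromosome 3, and Cib3 is at chr8:72204335-72212837 on the minus strand.

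For 5 of the 9 genes a RefSeq start coincided with the start of the counted gene model, and the 250 bases before that start are shown. Whether these windows are promoters was not tested. They are the plus or minus strand of each gene on GRCm38.p6, written 5′ to 3′ and ending at the base before the start. Arvcf is chr16:18347932-18348181, Mb21d2 chr16:28929699-28929948, Timmdc1 chr16:38522664-38522913, Mtmr11 chr3:96161720-96161969 and Cib3 chr8:72212838-72213087. Capitals mark matches, on either strand, to the CCAAT box (CCAAT) or the GC box (GGGCGG).
Arvcf: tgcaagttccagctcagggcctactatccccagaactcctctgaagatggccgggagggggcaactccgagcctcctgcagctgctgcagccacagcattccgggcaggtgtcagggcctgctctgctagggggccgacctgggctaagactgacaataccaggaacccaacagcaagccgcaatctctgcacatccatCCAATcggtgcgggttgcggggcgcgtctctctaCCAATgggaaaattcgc
Mb21d2: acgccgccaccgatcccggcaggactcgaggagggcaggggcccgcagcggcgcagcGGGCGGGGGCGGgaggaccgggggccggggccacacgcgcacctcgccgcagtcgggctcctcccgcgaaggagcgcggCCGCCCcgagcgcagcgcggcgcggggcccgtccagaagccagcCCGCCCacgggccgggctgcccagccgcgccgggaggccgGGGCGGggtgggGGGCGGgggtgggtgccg
Timmdc1: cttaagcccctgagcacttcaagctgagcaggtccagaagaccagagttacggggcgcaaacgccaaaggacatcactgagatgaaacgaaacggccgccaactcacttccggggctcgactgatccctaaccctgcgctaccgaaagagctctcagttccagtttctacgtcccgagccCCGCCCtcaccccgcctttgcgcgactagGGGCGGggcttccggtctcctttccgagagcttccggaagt
Mtmr11: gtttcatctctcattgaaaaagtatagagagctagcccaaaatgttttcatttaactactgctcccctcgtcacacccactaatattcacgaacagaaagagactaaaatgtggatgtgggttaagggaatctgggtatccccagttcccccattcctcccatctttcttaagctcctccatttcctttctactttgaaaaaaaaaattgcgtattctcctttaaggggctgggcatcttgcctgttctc
Cib3: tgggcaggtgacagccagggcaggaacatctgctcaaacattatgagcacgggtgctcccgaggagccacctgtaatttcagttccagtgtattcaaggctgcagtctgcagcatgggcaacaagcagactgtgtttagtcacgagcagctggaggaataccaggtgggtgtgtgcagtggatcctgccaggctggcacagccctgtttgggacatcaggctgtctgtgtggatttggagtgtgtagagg
The window of Mb21d2 was 84.4% G and C and held 6 GC boxes, a motif found in 32.7% of 32851 RefSeq windows of this length. Timmdc1 had 60% G and C and 2 GC boxes. The Arvcf window had 60.8% G and C and 2 CCAAT boxes, which occurred in 33.8% of all windows. Neither motif was present in the windows of Mtmr11 (42% G and C) and Cib3 (55.2%), where the median over all windows was 52.4%. The Cib3 window holds an ATG whose reading frame runs without a stop to the end of the window. It may therefore hold coding sequence, and its lack of motifs is not read as that of a promoter. A TATA box (TATAAA, in 12.4% of all windows) and the NF-E2 and antioxidant core (TGACNNNGC, 10.2%) were searched on both strands and matched none of the 5 windows. The 5 sequences thus share no motif of those searched, and a match is a match of letters only. Arvcf and Bglap3 have RefSeq windows at other starts, which are not shown. The Arvcf window at the start chr16:18392563 held GC boxes as well as a CCAAT box. Anxa13, Pla1a and Nfe2 are given by position only.

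**Figure D1:**
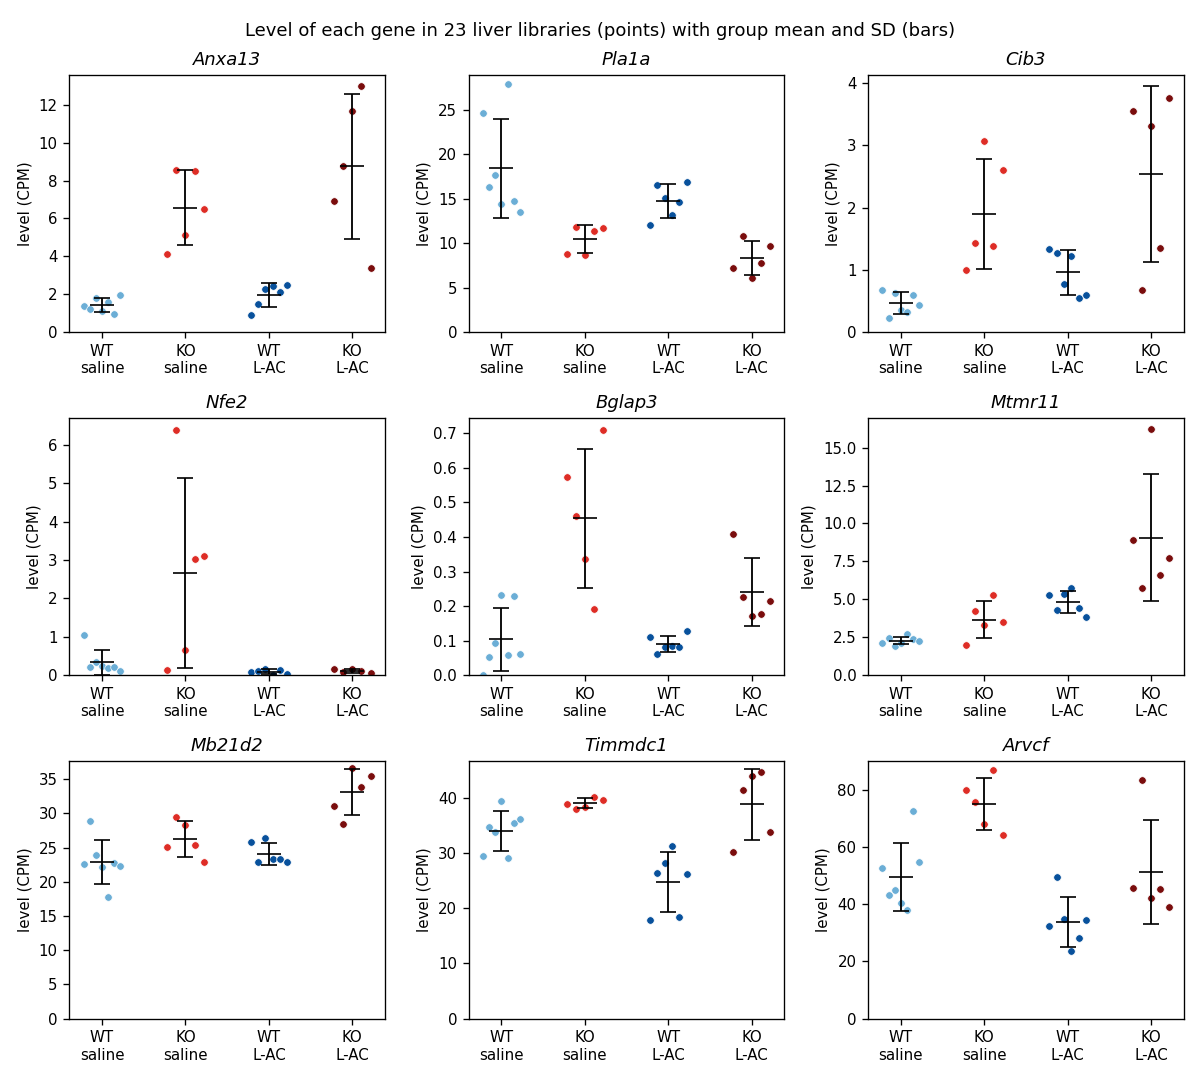
Level of each of the 9 genes in CPM (vertical axis, linear from 0, own scale per panel) in every library of the 4 groups (points), with the group mean and SD (bars). KO points lie apart from WT points under both treatments in the Anxa13 and Pla1a panels, and the KO saline points of Nfe2 spread from 0.143 to 6.37 CPM.

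Per kilobase of exon, the 9 genes fell into a higher and a lower set in WT saline livers. Timmdc1 stood at 16.4 ± 1.77 RPKM (CPM divided by exon length in kilobases, mean ± SD, n = 7). Arvcf at 9.83 ± 2.36, Pla1a at 9.36 ± 2.82 and Mb21d2 at 7.44 ± 1.06 RPKM followed, and those 3 differed by less than or about their SD. Anxa13 at 1.16 ± 0.292, Mtmr11 at 0.814 ± 0.0907 and Cib3 at 0.718 ± 0.268 RPKM were far lower. Nfe2 at 0.203 ± 0.192 and Bglap3 at 0.170 ± 0.149 RPKM were near the limit of detection, with 5 to 31 and 0 to 8 reads per WT saline library. All 4 genes of chromosome 16 were thus in the higher set, and the 5 genes elsewhere in the lower one.

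Anxa13 was higher in every KO liver than in any WT liver. Its level was 0.974 to 1.94 CPM in WT saline (median 1.38), with KO saline libraries at 4.12, 8.55, 5.11, 8.53 and 6.53 CPM. Under L-AC it was 0.886 to 2.51 CPM in WT (median 2.19), with KO libraries at 6.92, 8.76, 11.7, 13 and 3.36 CPM. The lowest KO library, on L-AC, thus still exceeded the highest WT library. The log2 fold change of KO against WT was 2.19 (SE 0.29) under saline and 2.17 (SE 0.30) under L-AC. Of the 14196 genes tested, 0.0211% had KO and WT libraries that did not overlap under either treatment in the same direction, namely Ehhadh, Anxa13 and Pla1a. The choice of genes fixed that separation, so nothing is read from it. Anxa13 is known from intestinal and kidney epithelium, and 6 markers of those tissues, of which Fabp2 made up nearly all, summed to 96.8 to 127 CPM in WT and 83.7 to 116 CPM in KO livers on saline, and to 182 to 339 CPM in WT and 151 to 318 CPM in KO livers on L-AC. The genotypes overlapped in that sum under both treatments.

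Pla1a was the 1 gene of the 9 that was lower in KO. WT saline livers had 13.6 to 27.9 CPM (median 16.3), and KO saline livers 8.77, 11.9, 8.7, 11.4 and 11.7 CPM. WT L-AC livers had 12 to 16.9 CPM (median 14.9), and KO L-AC livers 7.23, 10.8, 6.04, 7.76 and 9.66 CPM. No KO library reached the lowest WT library on the same treatment, although the gap was narrow, 11.9 against 13.6 CPM on saline and 10.8 against 12 CPM on L-AC. As a log2 fold change of KO against WT this was -0.82 (SE 0.18) under saline and -0.83 (SE 0.18) under L-AC.

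Cib3 was low in all livers and several-fold higher in most KO livers. It had 0.233 to 0.675 CPM in WT saline (9 to 21 reads) and 1, 1.43, 3.06, 1.39 and 2.6 CPM in KO saline (28 to 121 reads), without overlap, which held for 0.141% of all genes on saline. Under L-AC the WT livers had 0.55 to 1.33 CPM, and the KO livers 3.55, 0.68, 3.31, 1.36 and 3.77 CPM. One KO liver on L-AC, replicate 2, lay inside the WT range, and a second, at 1.36 CPM, only just above it. In log2, KO against WT stood at 2.05 (SE 0.39) under saline and 1.4 (SE 0.38) under L-AC.

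Nfe2 did not show the difference under both treatments that its choice names. In KO saline livers it had 0.143, 6.37, 0.649, 3.02 and 3.09 CPM, which were 4, 152, 25, 111 and 144 reads. WT saline livers had 0.104 to 1.05 CPM (median 0.229). Of the KO saline livers, 3 therefore exceeded all WT livers, 1 lay inside the upper part of the WT range and 1 near its bottom, a 44.5-fold span within 1 group. Under L-AC all 11 libraries were near zero, with 0 to 0.162 CPM in WT (0 to 6 reads) and 0.0617 to 0.173 CPM in KO (2 to 5 reads). KO against WT was 3.00 in log2 (SE 0.60) under saline and 0.39 (SE 0.98) under L-AC. The L-AC value rested on few reads and ran from 0.14 without WT L-AC replicate 4 to 0.68 with limma-voom.

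Markers of the cells in which NF-E2 is known did not stand in the same order as Nfe2 over the 5 KO saline livers. Taken in the same order as the Nfe2 values, the summed level of 8 erythroid markers was 571, 399, 567, 768 and 279 CPM. The sum of 6 megakaryocyte and platelet markers, of which Itga2b made up most, was 6.26, 5.49, 7.97, 8.28 and 4.1 CPM. The liver with the highest Nfe2 thus had the second lowest of both sums, and the liver with the lowest Nfe2 had erythroid markers among the higher ones. In the other groups the erythroid sum was 338 to 713 CPM (WT saline), 246 to 414 CPM (WT L-AC) and 293 to 656 CPM (KO L-AC), with none of the 8 markers at 0 in a whole group. The part of such cells in the Nfe2 level was not tested.

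Bglap3 rested on few reads. WT saline livers had 0, 2, 3, 8, 2, 8 and 3 reads and KO saline livers 16, 11, 13, 7 and 33 reads. WT L-AC livers had 4, 3, 2, 3, 3 and 6 reads and KO L-AC livers 12, 6, 5, 5 and 7 reads. In CPM the KO and WT livers overlapped on saline, through 1 KO liver at 0.191 CPM beside WT livers of up to 0.232, and not on L-AC (as in 0.451% of all genes), where KO had 0.173 to 0.409 and WT 0.0628 to 0.128. The log2 fold change was 2.10 (SE 0.42) under saline and 1.36 (SE 0.49) under L-AC. Nfe2 and Bglap3 passed the filter on low counts through the KO livers: Nfe2 reached the required 0.286 CPM in 6 libraries, 4 of them KO saline, and Bglap3 in 5 libraries, 4 of them KO saline. The other 7 genes reached it in at least 22 of the 23 libraries. Of 6 bone markers, Ibsp had no read in any library, and Dmp1, Sp7 and Runx2 had 1, 5 and 261 reads over all libraries. Alpl and Spp1 made up nearly all of the sum of the list, with 34068 and 17576 reads. That sum was 30.2 to 53.4 CPM in WT saline and 30.5 to 90.8 in KO saline, so the 2 groups overlapped.

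Mtmr11 was higher in most KO livers and varied more among KO than among WT animals. WT saline livers lay between 1.93 and 2.72 CPM, and KO saline livers at 1.97, 4.24, 3.32, 5.31 and 3.52 CPM, so 1 KO liver was at the bottom of the WT range and 4 were above it. On L-AC, WT livers lay between 3.87 and 5.76 CPM and KO livers at 8.9, 5.78, 16.2, 6.58 and 7.75 CPM, without overlap but with the lowest KO liver next to the highest WT liver. The coefficient of variation was 11.1% in WT saline and 15.2% in WT L-AC against 33.5% in KO saline and 46.2% in KO L-AC. The log2 fold change was 0.68 (SE 0.22) under saline and 0.91 (SE 0.22) under L-AC, and the latter was 0.59 without KO L-AC replicate 3, the highest. The counting ignored strand, and 37.7% of the exon bases of Mtmr11 are shared with Gm17690 on the opposite strand in the GENCODE annotation, so reads of the 2 cannot be told apart there.

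Mb21d2, Timmdc1 and Arvcf, all on chromosome 16, had smaller differences on much higher counts. Mb21d2 had 17.8 to 28.9 CPM in WT saline and 22.9 to 29.4 in KO saline, which overlapped, and 22.8 to 26.5 in WT L-AC against 28.4 to 36.7 in KO L-AC, which did not. Timmdc1 had 29.2 to 39.5 CPM in WT saline and 38.1 to 40.3 in KO saline, with only 2 KO livers above all WT livers, and 17.9 to 31.4 in WT L-AC against 30.3, 41.5, 44.1, 44.7 and 33.8 CPM in KO L-AC. Arvcf had 38 to 72.7 CPM in WT saline against 64.3 to 86.9 in KO saline, and 23.5 to 49.5 in WT L-AC against 45.8, 83.4, 42.3, 45.3 and 39.2 CPM in KO L-AC. Timmdc1 and Arvcf therefore overlapped between the genotypes under both treatments, and on L-AC 1 KO liver alone exceeded the WT range of Arvcf. The KO livers on saline were tight for Timmdc1, with a coefficient of variation of 2.31% against 10.8% in WT.

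For Mb21d2 the log2 fold change was 0.20 (SE 0.09) under saline and 0.46 (SE 0.10) under L-AC, and for Timmdc1 0.20 (SE 0.12) and 0.65 (SE 0.13). For Arvcf it was 0.60 under both, with SE 0.19 and 0.20, but the L-AC value rested in part on KO L-AC replicate 2 and was 0.35 without it. The median absolute log2 fold change over all genes tested was 0.08 under saline and 0.09 under L-AC.

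**Figure D2:**
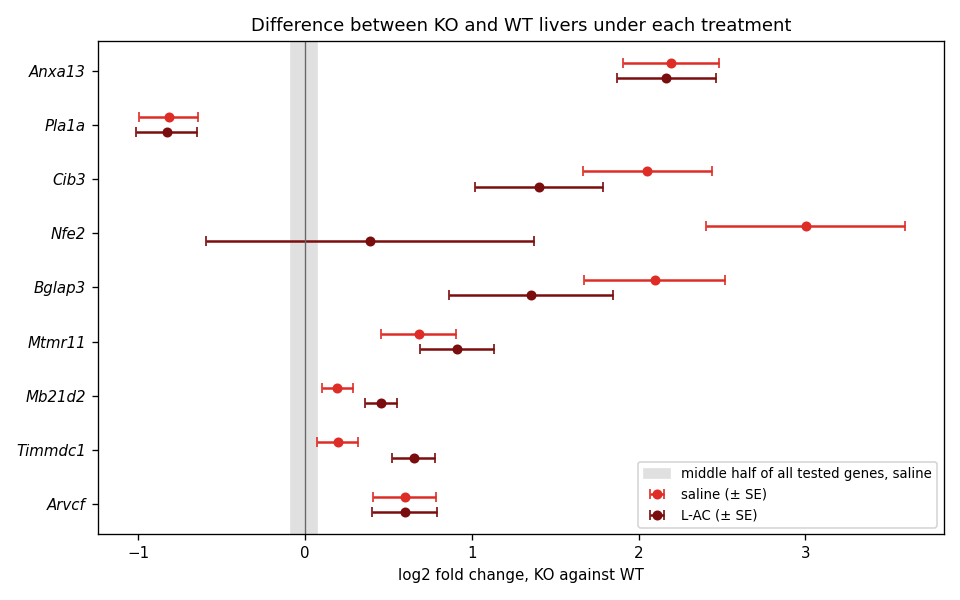
Log2 fold change of KO against WT (horizontal axis) with its SE (bars) for the 9 genes under saline (light red) and L-AC (dark red), with the central part of all tested genes under saline as a grey band, from -0.08 to 0.07. Anxa13 and Pla1a have nearly the same value under both treatments, as has Arvcf, whose L-AC value was 0.35 without KO L-AC replicate 2, and Nfe2 is at 3.00 under saline and 0.39 under L-AC.

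The response to L-AC was not used in the choice of the genes as such, and it was tested within each genotype. The same 23 libraries served both the choice and this test, however, so every gene enters it with group values that helped to choose it. A gene picked for high KO saline values, such as Nfe2, brings them into the KO comparison. The p-values below are therefore no independent support for any of the genes. Counts are given for the 7 genes that reached the filter in at least 22 libraries. Nfe2 and Bglap3, which passed it through KO livers, are given with no test. In WT livers, edgeR's quasi-likelihood test with Benjamini-Hochberg adjustment called 2 of the 7 higher with L-AC (Cib3 and Mtmr11) and 2 lower (Timmdc1 and Arvcf), where 53.3% of all genes tested were called, 26.6% higher and 26.7% lower. In KO livers it called 2 higher (Mtmr11 and Mb21d2) and 1 lower (Arvcf), where 48.8% of all genes were called, 25.2% higher and 23.6% lower. With 4 and 3 of 7 called, neither count stood apart from the background. The median log2 fold change of the 7 was 0.07 in WT and 0.34 in KO, where that of all genes was -0.01 in both.

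Mtmr11 rose with L-AC in both genotypes. The log2 fold change was 1.07 (SE 0.21, edgeR adjusted p = 0.000215) in WT and 1.30 (SE 0.24, edgeR adjusted p = 0.000115) in KO. Every L-AC liver lay above every saline liver of its genotype, and of the 9 genes only Mtmr11 had such a separation in both. Of all genes tested, 24.1% had it in WT and 32.6% in KO. Leaving out each library in turn kept the log2 change between 1.01 and 1.13 in WT and between 0.98 and 1.47 in KO.

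Nfe2 is given with no test in either genotype, because its high KO saline values chose it and carried it past the filter. It reached the required level in 2 WT saline and 0 WT L-AC libraries. In KO livers its log2 change with L-AC was -4.45 (SE 0.78). The 5 saline livers held 436 reads in all and the 5 L-AC livers 17, and the ranges overlapped only because KO saline replicate 1 held 4 reads. Without KO saline replicate 2, the highest, the change was -3.86. In WT livers the log2 change of Nfe2 was -1.84 (SE 0.77), from 78 reads over 7 livers to 20 over 6. Without WT saline replicate 1, which alone held 31 of the 78 reads, the change was -1.25.

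Arvcf fell by 0.55 on the log2 scale in both genotypes, with edgeR adjusted p = 0.014 in WT (SE 0.18) and 0.03 in KO (SE 0.20). The KO call was lost with age in weeks as a covariate (log2 change -0.43, adjusted p = 0.0774). It was also lost without any 1 of 6 KO libraries (saline replicates 1 and 4, L-AC replicates 1, 3, 4 and 5), where the change was -0.53, -0.49, -0.51, -0.49, -0.51 and -0.47 and the adjusted p 0.0562 to 0.0829.

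Timmdc1 and Cib3 passed the test in WT only, and Mb21d2 in KO only. Timmdc1 fell in WT by 0.46 on the log2 scale (SE 0.12, edgeR adjusted p = 0.00245) and had a log2 change of -0.01 (SE 0.14, adjusted p = 0.967) in KO. Cib3 rose in WT by 1.06 (SE 0.38, edgeR adjusted p = 0.0239) and had 0.41 (SE 0.39, adjusted p = 0.402) in KO. Mb21d2 rose in KO by 0.34 (SE 0.10, edgeR adjusted p = 0.00838) and had 0.07 (SE 0.09, adjusted p = 0.498) in WT. That these responses differ between the genotypes was not tested. Among all genes ranked by p for KO against WT, Timmdc1 stood at 4 and Mb21d2 at 6 on L-AC, but at 931 and 244 on saline. Cib3 stood at 3 on saline and 34 on L-AC. The choice thus drew on groups that these calls compare, which may have favoured them. The Cib3 call was lost with limma-voom (1.05, adjusted p = 0.0619) and without any 1 of WT saline replicate 2 or WT L-AC replicates 1, 2 and 4, where the change was 0.94 to 0.98 and the adjusted p 0.0503 to 0.0571.

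Anxa13 and Pla1a did not pass the test in either genotype. For Anxa13 the log2 change was 0.44 (SE 0.28, edgeR adjusted p = 0.197) in WT and 0.41 (SE 0.30, adjusted p = 0.262) in KO. For Pla1a it was -0.32 (SE 0.16, adjusted p = 0.102) and -0.34 (SE 0.19, adjusted p = 0.149). For Bglap3 it was -0.17 (SE 0.50) in WT and -0.91 (SE 0.43) in KO, given with no test for the same reason as for Nfe2. Bglap3 reached the filter level in 0 WT saline and 0 WT L-AC libraries.

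The difference between the KO and the WT response to L-AC equals the difference between the 2 genotype differences that chose the genes, so it is given with no test. It was -0.03 on the log2 scale for Anxa13, -0.01 for Pla1a and 0.00 for Arvcf. It was 0.23 for Mtmr11, 0.26 for Mb21d2 and 0.46 for Timmdc1, and -0.65 for Cib3, -0.74 for Bglap3 and -2.61 for Nfe2. In the last 3 the genotype difference was smaller on L-AC, and in Mtmr11, Mb21d2 and Timmdc1 it was larger on L-AC.

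**Figure D3:**
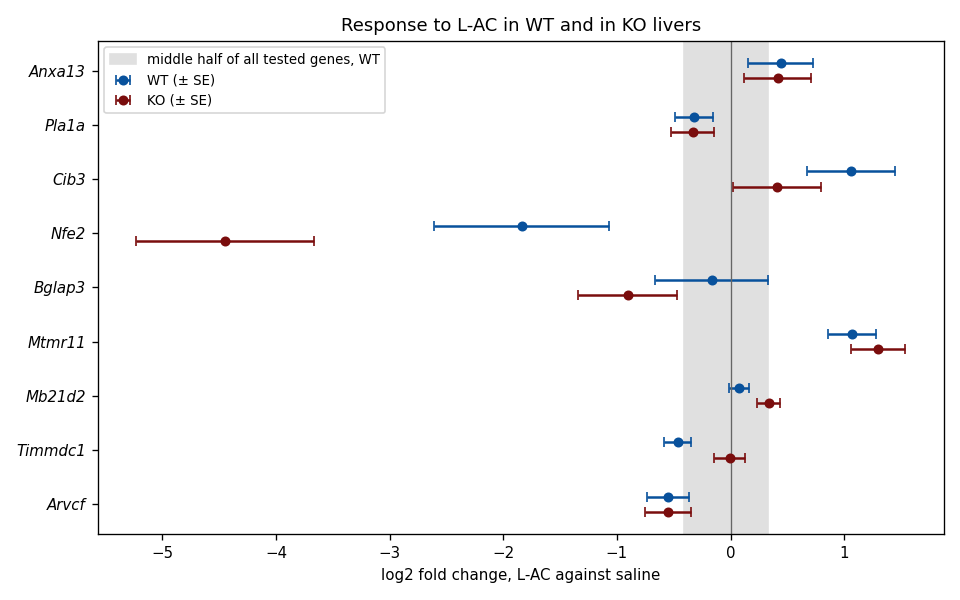
Log2 fold change of L-AC against saline (horizontal axis) with its SE (bars) in WT (blue) and KO (dark red) livers for the 9 genes, with the central part of all tested genes in WT as a grey band, from -0.41 to 0.33. Mtmr11 is to the right of the band in both genotypes (1.07 and 1.30) and Nfe2 to the left in both (-1.84 and -4.45).

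The genes next to the 9 were looked at in the genotype comparisons, since neighbours were not part of the choice. Within 500 kb lay 139 other tested genes, and edgeR's quasi-likelihood test called 0 of them under saline, 0 under L-AC and 0 averaged over treatments. Of all genes 0.0141%, 0.0141% and 0.0282% were called, namely Ehhadh and Anxa13 under each treatment, joined by Pla1a and Cib3 in the average. All are Ehhadh or among the 9, which are not counted as neighbours. The edgeR count of 0 was thus fixed in advance, and nothing is read from it. At an unadjusted p under 0.05 there were 3, 9 and 4, where 1.86%, 4.53% and 3.79% of all genes had such a p. DESeq2 called 1, Upk1b near Pla1a and Timmdc1, averaged over treatments. Their median absolute log2 fold change averaged over treatments was 0.05, against 0.06 over all genes.

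Pla1a and Timmdc1 are a close pair. Averaged over treatments, the log2 fold change of KO against WT was -0.82 for Pla1a and 0.42 for Timmdc1, in opposite directions 64.7 kb apart. Adprh, which lies between them, had -0.01 (SE 0.10). Poglut1 on the far side of Timmdc1 had 0.13 (SE 0.06), and Cox17 on the far side of Pla1a 0.03 (SE 0.06). Tango2, the nearest gene on the left of Arvcf, had -0.04 (SE 0.07), and the nearest genes of Mb21d2 were Fgf12 at -0.41 (SE 0.23) and Opa1 at -0.04 (SE 0.05).

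Neighbours of the genes on other chromosomes lay closer still in some cases. Hnrnpa1 lies 1.52 kb from Nfe2 and had 0.02 (SE 0.11), and Copz1 had -0.06 (SE 0.09). Otud7b and Sf3b4 flank Mtmr11 at 0.841 and 0.832 kb and had 0.16 (SE 0.10) and -0.00 (SE 0.06). Smg5 and Pmf1 beside Bglap3 had 0.07 (SE 0.06) and 0.06 (SE 0.08). Rab8a and Fam32a beside Cib3 had -0.03 (SE 0.06) and -0.06 (SE 0.05), and Fbxo32 and D15Ertd621e beside Anxa13 had -0.08 (SE 0.14) and -0.00 (SE 0.05). Of the 4 genes of chromosome 16, Pla1a, at 16.6 Mb from Ehhadh, had the largest absolute difference and Mb21d2, at 7 Mb, the smallest. These differences chose the genes, so nothing is read from their order. Whether position on chromosome 16 bears on them was not tested.

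**Figure D4:**
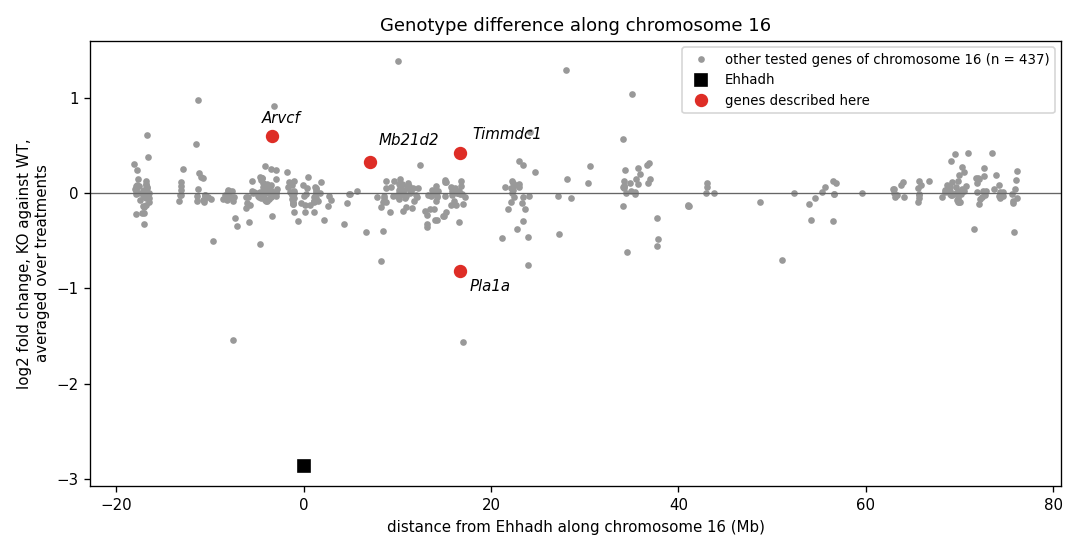
Log2 fold change of KO against WT averaged over treatments (vertical axis) for all 442 tested genes of chromosome 16 by their distance from Ehhadh in Mb (horizontal axis). Ehhadh is the black square, the 4 genes described here are red and the other tested genes grey; Arvcf (0.60), Timmdc1 (0.42) and Mb21d2 (0.33) stand above 0 and Pla1a (-0.82) below it.

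Relatives of the 9 genes were counted from 9 family lists, chosen by membership and not by how they moved. Of 61 tested relatives, edgeR's quasi-likelihood test called 0 in KO against WT under saline, under L-AC or averaged over treatments, with 2, 3 and 2 at an unadjusted p under 0.05, and DESeq2 also called 0. In those comparisons edgeR called 0.0141%, 0.0141% and 0.0282% of all genes, all of them Ehhadh or among the 9. As the 9 were left out of the lists, the edgeR count of 0 was fixed in advance, and nothing is read from it. Bglap and Bglap2, the osteocalcin genes next to Bglap3, had too few reads to be tested.

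With L-AC, 33 of the 61 relatives (54.1%) were called in WT and 29 (47.5%) in KO, near the 53.3% and 48.8% of all genes, so the counts below are not particular to these lists. Log2 changes are given for WT first and KO second, and those written as rising or falling passed edgeR's test at an adjusted p under 0.05 in both genotypes. Of the other annexins, 3 were higher and 1 lower in WT, and the same numbers held in KO. Anxa5 rose by 2.06 in WT and 2.35 in KO on the log2 scale (edgeR adjusted p = 6.9e-08 and 1.34e-07) and Anxa2 by 1.68 and 2.33 (adjusted p = 0.000331 and 7.23e-05), while Anxa13 did not pass the test. Of the other myotubularins, 8 were higher and 3 lower in WT and 7 higher and 3 lower in KO. Mtmr1 rose by 0.68 and 0.62 and Sbf1 by 0.54 and 0.72, below the log2 changes of 1.07 and 1.30 of Mtmr11.

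Among 13 complex I assembly factors other than Timmdc1, 1 was higher and 5 lower in WT, and 1 higher and 4 lower in KO. Ndufaf6 fell by 0.77 in WT and by 0.95 in KO, and Ndufaf4 rose by 0.75 and 0.83. Of 8 NF-E2 relatives and small Maf partners, 2 were higher and 3 lower in WT, and 3 higher and 1 lower in KO. Mafk, a small Maf partner, rose by 1.07 and 1.56, whereas Nfe2 had -1.84 and -4.45. Among 5 delta catenins and plakophilins, 3 were higher and 1 lower in WT, and 1 higher in KO, and Pkp2 rose by 0.71 and 0.82 where Arvcf fell.

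The smaller lists gave few calls. Cib2 fell by 1.37 in WT and 1.57 in KO, and Cib1 had -0.05 and 0.01, which did not pass the test. Lipc, the hepatic lipase of the family that holds Pla1a, fell by 1.11 and 1.34. Mab21l2 rose by 1.46 and 1.02, and of 6 Mab-21 fold genes other than Mb21d2, 1 was called in WT and 3 in KO, all higher.

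Within groups, no pair of the 9 genes passed a test for moving together from animal to animal. With 23 libraries the test can miss moderate correlations, and few reads limit Nfe2 and Bglap3. After the mean of each group was removed from log2 CPM, Pearson's r over the 23 libraries ranged from -0.47 (Pla1a with Mb21d2) to 0.46 (Anxa13 with Timmdc1, and Nfe2 with Mtmr11), with 18 of 36 pairs positive and a median of 0.01. In a permutation test within groups (100000 resamples, two-sided), 0 of the 36 pairs passed after Benjamini-Hochberg adjustment, the lowest adjusted p being 0.598. Unadjusted, 1 pair had p under 0.05. By Spearman's rho 0 pairs passed, the lowest adjusted p being 0.769, and 0 had an unadjusted p under 0.05. Without the 2 libraries farthest from the median of the first gene of a pair, r ranged from -0.40 to 0.39. Pla1a and Timmdc1, 64.7 kb apart, had r = -0.20.

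**Figure D5:**
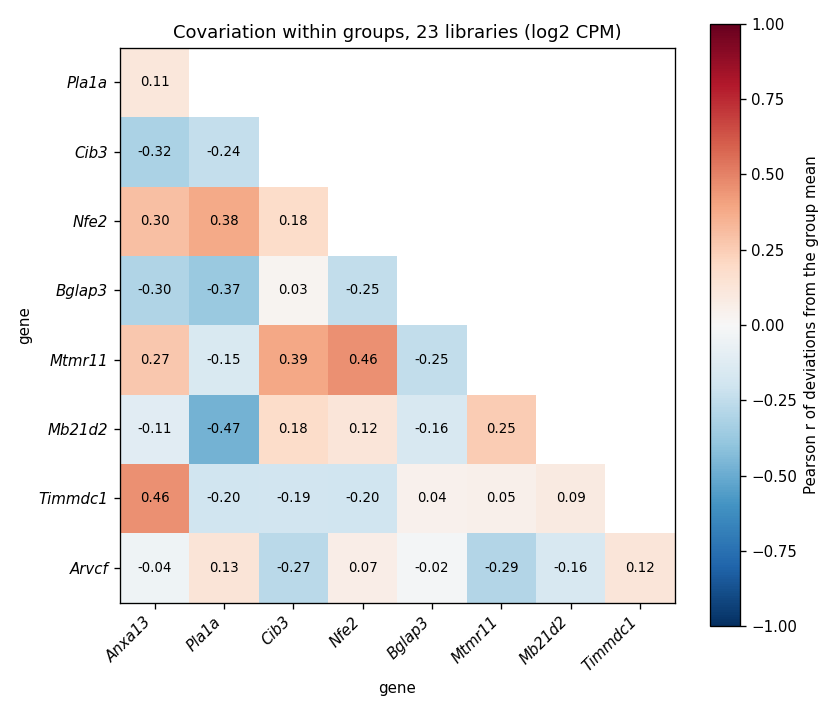
Pearson's r between the 9 genes (both axes) of the deviations of log2 CPM from the group mean over 23 libraries, from -1 (blue) to 1 (red), with r written in each cell. No cell lies beyond -0.47 or 0.46.

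With only the treatment means removed, so that the genotype difference stayed in, the genes most like each of the 9 were found over the 23 libraries, as a description with no test. Abhd10 was most like Pla1a (r = 0.833), N4bp3 most like Timmdc1 (0.839), Ift57 most like Mb21d2 (0.782) and Emp2 most like Cib3 (0.781). Rdh11 was among the most like Nfe2 (0.776). Sept5 was most like Anxa13 (0.742), Gm3776 most like Mtmr11 (0.734), Mir7013 most like Bglap3 (0.722) and Med21 most like Arvcf (0.708). Of the 18 genes so listed, 2 for each of the 9, Sept5, Abhd10, Emp2 and Ift57 lie on chromosome 16, and 2 belong to the 9 themselves, Mtmr11 for Cib3 (0.688) and Anxa13 for Mtmr11 (0.717). All of these values share the same libraries and the same genotype groups.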

How the data were processed

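Per the labels' protocols, liver RNA was taken up with polyA capture and sequenced as 100-base single-end Illumina reads. The authors aligned reads with STAR 2.4.0, per the submitters' processing notes, and counted them over mm10 gene models with featureCounts 1.4.4, per the file headers, keeping primary alignments, ignoring strand and letting a read count for every gene it overlapped. The deposited values are raw counts with no normalization. Genes were kept by filterByExpr of edgeR 4.0.16 (minimum count 10, total 15) in R 4.3.3. TMM factors scaled the libraries, and a quasi-likelihood model with a mean for each of the groups took in all 23 libraries, with Benjamini-Hochberg adjustment over 14196 genes and a call at an adjusted p under 0.05. CPM uses the TMM-scaled library size, RPKM also divides by the counted exon length, and correlations used log2 CPM with a prior count of 2. Among 56 pairs of replicates, the smallest chi-square divided by its degrees of freedom was 44.05 (genes of 20 reads or more), so no library was a repeat of another in its group; pairs across groups were not compared. Samples were grouped by the labels, which give no batch.

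The 9 genes, the family lists and the marker lists were chosen with earlier results of these data known. All 9 genes are named; of a family list up to 2 genes with the smallest p in an L-AC comparison, of neighbours the nearest tested gene on each side, and the 2 most like genes. Upk1b was named as the 1 gene of its count, after its values were seen, and some genes that these rules take are not reported here. Upstream sequences are RefSeq's on GRCm38.p6. The fits were tested on simulated data with changed genes. Alternatives were DESeq2 1.42.0, its size factors in edgeR, limma-voom (limma 3.58.1), age in weeks as a covariate, no filter on low counts, a minimum of 1 CPM in 5 libraries, fitting the compared groups alone, and leaving out each library. Depth limits Nfe2 and Bglap3, whose libraries hold few reads; 3 reads correspond to the limit that a count of 0 allows, for counting error only.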

Additional observations from a re-analysis of the deposited data

Results flagged for a closer look

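Of 36 sets of values (9 genes in 4 groups), 3 held a library far from the others of its group, where chance gives about 1 in 20. For Nfe2, WT saline replicate 1 stood at 1.05 CPM, with the next at 0.347 and the lowest at 0.104, and the WT response of Nfe2 to L-AC was -1.25 in log2 without it. For Bglap3, KO L-AC replicate 1 stood at 0.409 CPM on 12 reads, with the next at 0.227 CPM. For Arvcf, KO L-AC replicate 2 stood at 83.4 CPM, with the next at 45.8 and the lowest at 39.2, and it was the 1 KO liver on L-AC above the WT range of that gene. The cause of each was not tested.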

How the results depend on the processing

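The 9 genes gave 532 values for L-AC against saline under alternatives, with Nfe2 and Bglap3 counted although both are given with no test. Of these, 493 kept their direction and their side of the threshold, 31 lost the call, 2 gained it and 6 changed sign. All 6 were values with no call. Bglap3 in WT (-0.17) was 0.23 with limma-voom and 0.14 without WT saline replicate 4 or 6. Timmdc1 in KO (-0.01) was 0.00 without KO saline replicate 4, and 0.07 and 0.04 without replicates 1 and 5 of KO L-AC. With each library left out, Bglap3 in WT ran from -0.36 to 0.14 and Timmdc1 in KO from -0.06 to 0.07. The calls lost were those of Cib3 in WT and Arvcf in KO, and that of Nfe2 in WT, which is not used above. The 792 values of KO against WT moved by less than 1 SD, here the spread of a gene's log2 CPM among animals within groups. Some moved by more than their SE. Under L-AC, Arvcf went from 0.60 (SE 0.20) to as low as 0.35 and Mtmr11 from 0.91 (SE 0.22) to as low as 0.59.

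Calls over all genes were 2 for KO against WT under saline, 2 under L-AC and 4 averaged over treatments. DESeq2 gave 7, 15 and 22, and a fit of only the groups compared gave 5 under L-AC; the cause was not tested. Leaving out 1 library gave 2 to 5, 2 to 6 and 4 to 7. For L-AC against saline the counts were 7572 in WT (6935 to 7740 with a library left out) and 6924 in KO (6181 to 7105). Nfe2 and Bglap3 were not tested with a minimum of 1 CPM, nor in most fits of only the groups compared. No paired analysis was possible because the labels give no replicate number that groups share. Low read numbers limit what can be said of Nfe2 and Bglap3.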
